A study of Mus musculus with 4 samples.

Results

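To describe how the kidney's glucose-making and fructose-handling program stood in pristane-injected mice with and without Zbp1, 8 genes were followed: Pck1, G6pc, Fbp1, Pcx, Glud1, Slc37a4, Khk and Ppargc1a. They were taken by name for their place in renal gluconeogenesis and fructose metabolism, and they are 8 of the 54532 genes counted in each library. All 8 passed the filter on low counts and were among the 14908 genes tested. Kidneys came from wild-type (WT) mice and from mice that lack Zbp1 (Zbp1-KO), and each genotype gave 2 libraries. The Zbp1 protein binds nucleic acid in the Z form, and its gene's exons 2 to 8 had been removed with CRISPR-Cas9. According to the labels and the study's methods, all mice were C57BL/6J, received 500 μL of pristane (a hydrocarbon oil that provokes lupus-like autoimmunity) into the peritoneum at 8 weeks of age, and gave their kidneys 8 months later. Every library therefore comes from a pristane-injected animal, and kidneys without pristane were not analysed here. The WT mice were purchased and are not described as littermates of the knockouts. Each library is labelled as a separate mouse kidney.

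Gluconeogenesis builds glucose from lactate, glutamine, glycerol and amino acids, and besides the liver the kidney cortex is the main organ that releases glucose made in this way. Within the nephron the work is done by the proximal tubule, where glutamine is also stripped of ammonia for acid excretion. The same cells take up fructose and break it down to triose phosphates, which can enter glycolysis or return to glucose. Hormones and acid load set the pathway mainly through transcription of its rate-limiting enzymes.

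Total counts ranged from 9878776 to 12921925 per library, of which 49.5% to 61.5% fell on mitochondrially encoded genes, lowest in Zbp1-KO 1. The targeted gene was lower in both knockouts, with 94 and 125 counts in WT and 18 and 0 counts in Zbp1-KO. The tissue label was matched by high proximal tubule markers, for example 1270 ± 235 CPM (counts scaled to a library total of 1e+06 after TMM adjustment) of the fatty acid transporter Slc27a2 in WT, against 1179 ± 170 CPM in Zbp1-KO (SD of 2 libraries). Of 12 such markers, 11 passed the filter, and Slc7a13 did not. Xist reached at least 321 CPM in every library and 3 of 4 Y-linked genes were at 0 counts throughout, while Ddx3y had 6 counts in WT 1 and 0 elsewhere. The study describes the pristane-injected mice as female.

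Promoter sequence is shown for Pck1 and Ppargc1a, whose RNA varied little across the 4 libraries, and for Fbp1 and Pcx, whose RNA varied more. The choice followed that spread, and G6pc, with the widest range of the 8 genes (2.17-fold), is not shown. Sequences are from RefSeq (GRCm38.p6), read 5′ to 3′ on the gene's strand, and stop where the first annotated exon of GENCODE M21 begins. Capitals mark the letters of the cAMP response element, searched on both strands as TGACGTCA, as its variant TTACGTCA and as the core TGACG, which overlaps both longer forms. The stretches lie at chr2:173152823-173153047 on the plus strand for Pck1, chr5:51567727-51567975 on the minus strand for Ppargc1a, chr13:62888283-62888532 on the minus strand for Fbp1 and chr19:4510222-4510471 on the plus strand for Pcx.
Pck1: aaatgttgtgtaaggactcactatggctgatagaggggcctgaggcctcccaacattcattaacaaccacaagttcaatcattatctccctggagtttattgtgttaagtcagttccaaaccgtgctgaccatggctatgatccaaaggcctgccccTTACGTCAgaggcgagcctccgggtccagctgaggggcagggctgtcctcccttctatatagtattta
Ppargc1a: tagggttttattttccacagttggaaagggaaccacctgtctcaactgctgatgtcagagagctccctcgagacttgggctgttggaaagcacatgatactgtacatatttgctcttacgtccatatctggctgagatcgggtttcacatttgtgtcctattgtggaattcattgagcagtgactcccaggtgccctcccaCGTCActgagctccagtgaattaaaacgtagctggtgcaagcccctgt
Fbp1: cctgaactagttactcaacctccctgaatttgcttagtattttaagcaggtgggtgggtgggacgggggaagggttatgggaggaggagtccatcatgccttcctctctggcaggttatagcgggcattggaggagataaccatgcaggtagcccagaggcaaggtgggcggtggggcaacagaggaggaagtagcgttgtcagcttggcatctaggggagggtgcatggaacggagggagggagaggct
Pcx: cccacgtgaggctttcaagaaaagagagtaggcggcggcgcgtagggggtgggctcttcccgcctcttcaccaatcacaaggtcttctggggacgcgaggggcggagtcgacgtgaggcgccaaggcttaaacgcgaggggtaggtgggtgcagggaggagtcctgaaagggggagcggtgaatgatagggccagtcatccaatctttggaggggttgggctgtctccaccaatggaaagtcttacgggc

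The Pck1 promoter held TTACGTCA from 93 to 86 bases before the RefSeq start, a motif found in 0.447% of 32851 promoters of 250 bases. Ppargc1a held the core alone, 49 to 45 bases before its start, and neither Fbp1 nor Pcx held any of these letters in the window. Across the 8 genes, which have 11 annotated starts, the core was present in at least 1 promoter of 4 genes (Pck1, Ppargc1a, Khk and Slc37a4), against 17.8% of all promoters. Glud1, without the core, ranged 1.16-fold from its lowest to its highest library. Pck1 and Slc37a4, with it, ranged 1.19-fold and 1.39-fold. Whether the core bears on the spread between libraries was not tested. The full TGACGTCA was in the promoters of 0 of the 8 genes and in 1.55% of all promoters. For the HNF1-type core GTTAAT the figures were 3 of 8 genes (Pck1, Khk and G6pc) and 6.43%, for the nuclear receptor core TGACCT 2 of 8 genes (Slc37a4 and G6pc) and 14.0%, and for the E-box CACGTG 2 of 8 genes (Khk and Pcx) and 6.02%. The insulin response letters CAAAACA stood only in the G6pc promoter among the 8 genes and in 5.56% of all promoters. CAAAGTCCA (HNF4 type), GTAAACA (FOXO) and TGTTCT (glucocorticoid receptor core) matched in 0 of the 8 genes, and in 0.384%, 3.17% and 16.1% of all promoters.

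Levels of the 8 genes were first set in order per length, as RPKM (CPM per kilobase of exon). Khk was highest with a mean of 151 RPKM over the 4 libraries, at rank 129 of the tested genes, followed by Pck1 with 71.6 RPKM. Fbp1 (38.3 RPKM) and Glud1 (31.4 RPKM) came next, and their values overlapped across libraries. Slc37a4 (20.6 RPKM), G6pc (20.1 RPKM) and Pcx (14.7 RPKM) formed an overlapping group below them. Ppargc1a was lowest with 4.99 RPKM, at rank 4865. Khk and Pck1, Pck1 and Fbp1, Glud1 and Slc37a4, and Pcx and Ppargc1a did not overlap in RPKM, so the steps between them exceeded the spread between libraries.

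**Figure D1:**
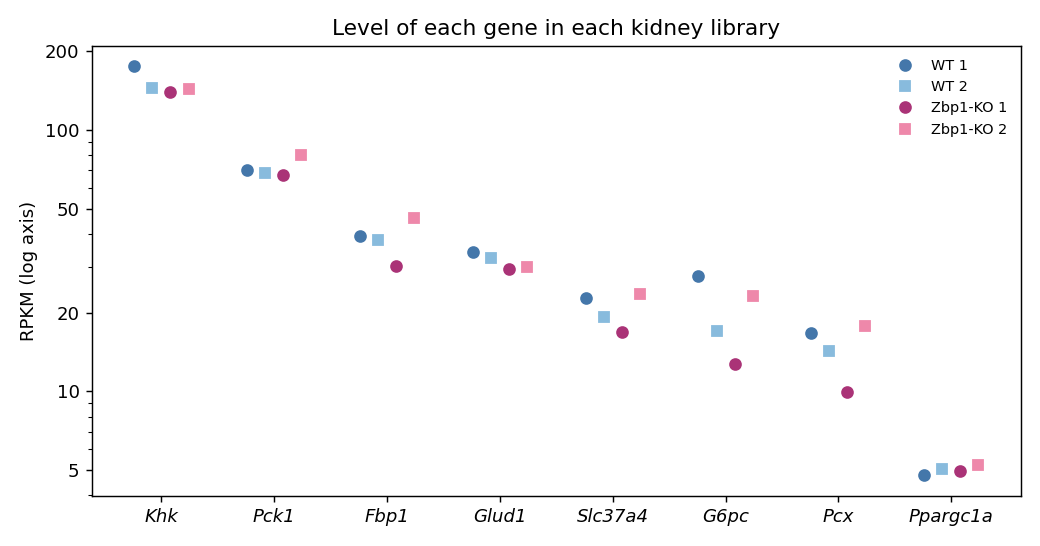
RPKM (log axis) of the 8 genes in each of the 4 libraries, with circles for replicate 1 and squares for replicate 2 of WT (blue shades) and Zbp1-KO (purple and pink). Khk and Pck1 stand above the rest, and the libraries spread most for G6pc, from 12.7 to 27.5 RPKM.

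The comparison of genotypes asked whether these genes shifted in kidneys that lack Zbp1. Of the 8 genes, 0 passed an adjusted p under 0.05 in the edgeR quasi-likelihood test over all genes, where 0.0134% of tested genes did, and 0 passed an unadjusted p under 0.05, where 3.88% did. The smallest unadjusted p among them was 0.310 (edgeR), for G6pc. Without Zbp1-KO 2 the count at an unadjusted p under 0.05 was 2 of 8 (G6pc and Pcx, both lower, edgeR adjusted p = 0.358 and 0.413), where 1476 of 15929 tested genes passed. 6 of the log2 fold changes (Zbp1-KO over WT) were below 0 and 2 above, and they ran from −0.32 to 0.09 with a median of −0.11, beside −0.01 over all tested genes. Standard errors (SE) lay between 0.18 and 0.30 on the log2 scale. The deleted gene Zbp1 was itself not called by this test. Its log2 fold change was −3.64 ± 0.89 (SE, edgeR unadjusted p = 0.00153, adjusted p = 0.999). The 95% intervals of the fold reached down to 0.511 (G6pc) and up to 1.42 (Ppargc1a), and folds beyond those bounds lay outside the interval of every one of the 8 genes. The genotypes did not overlap for 2 of the 8 genes, Khk and Glud1, each of them lower in Zbp1-KO. Over all tested genes that share was 32.3% in either direction and 16.3% for lower, and with upper quartile scaling Glud1 alone of the 8 kept apart.

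**Figure D2:**
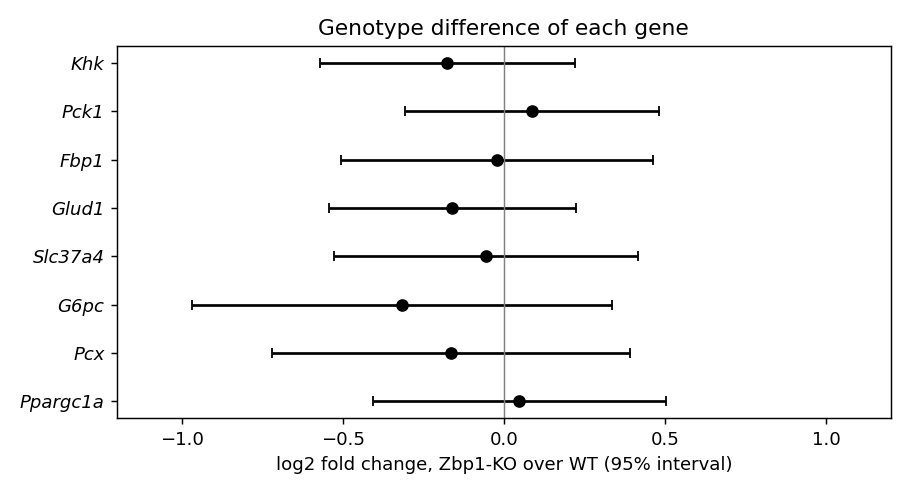
Log2 fold change (Zbp1-KO over WT) of the 8 genes, as points with 95% intervals from edgeR (2 libraries per genotype), in order of RPKM. Every interval includes 0, and that of G6pc is the widest, from −0.97 to 0.33.

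Pck1 encodes cytosolic phosphoenolpyruvate carboxykinase, which commits oxaloacetate to glucose synthesis. It had 242 and 235 CPM in WT, against 231 and 275 CPM in Zbp1-KO. Zbp1-KO 1 was the lowest library and Zbp1-KO 2 the highest, so the genotypes overlapped. The log2 fold change was 0.09 ± 0.18 (SE), which leaves a fold between 0.808 and 1.39 at 95% (edgeR adjusted p = 0.999). Pck1 is also a chromosomal neighbour of the deleted gene, as taken up further on.

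G6pc encodes the catalytic subunit of glucose-6-phosphatase, which frees glucose at the last step of the pathway. Its values were 66.4 and 41.0 CPM in WT, against 30.6 and 56.0 CPM in Zbp1-KO. WT 1 was highest and Zbp1-KO 1 lowest, 2.17-fold apart, and each genotype spanned most of that range. The log2 fold change was −0.32 ± 0.30 (SE, edgeR adjusted p = 0.999), and it was 0.07 without WT 1, 0.05 without Zbp1-KO 1 and −0.82 without Zbp1-KO 2. Slc37a4 encodes the transporter that brings glucose 6-phosphate into the endoplasmic reticulum to that enzyme. It measured 64.8 and 54.8 CPM in WT, against 48.2 and 67.1 CPM in Zbp1-KO, again with Zbp1-KO 1 lowest and the genotypes overlapping. Its log2 fold change was −0.06 ± 0.22 (SE).

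Fbp1 encodes fructose-1,6-bisphosphatase, which acts between the Pck1 and G6pc steps. It had 66.6 and 64.7 CPM in WT, against 51.4 and 78.2 CPM in Zbp1-KO, so the WT values lay between the Zbp1-KO values. The log2 fold change was −0.02 ± 0.22 (SE), and became 0.25 without Zbp1-KO 1. Pcx encodes pyruvate carboxylase, which feeds pyruvate and lactate carbon into the pathway inside mitochondria. Values were 79.5 and 67.6 CPM in WT, against 47.2 and 84.6 CPM in Zbp1-KO, where Zbp1-KO 1 stood apart below the other libraries. Its log2 fold change was −0.16 ± 0.25 (SE), 0.19 without Zbp1-KO 1 and −0.65 without Zbp1-KO 2.

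Glud1 encodes glutamate dehydrogenase, by which glutamine-derived glutamate enters the citric acid cycle and releases ammonia. It measured 143 and 136 CPM in WT, against 124 and 126 CPM in Zbp1-KO. Both Zbp1-KO libraries were below both WT libraries, and the log2 fold change was −0.16 ± 0.18 (SE, edgeR adjusted p = 0.999). With any 1 library left out it stayed between −0.20 and −0.13.

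Khk encodes ketohexokinase (fructokinase), which phosphorylates fructose and starts its breakdown. It had 315 and 260 CPM in WT, against 252 and 258 CPM in Zbp1-KO. WT 1 was above the other 3 libraries, which lay close together. The log2 fold change was −0.18 ± 0.18 (SE, edgeR adjusted p = 0.999), and −0.04 without WT 1.

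Ppargc1a encodes PGC-1α, a transcriptional coactivator of gluconeogenic and mitochondrial genes. Its 31.4 and 33.3 CPM in WT, against 32.6 and 34.4 CPM in Zbp1-KO interleaved, and the highest library exceeded the lowest 1.09-fold, the smallest range among the 8 genes. The log2 fold change was 0.05 ± 0.21 (SE).

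The spread within a genotype was next compared with the difference between genotypes. All 8 genes were higher in Zbp1-KO 2 than in Zbp1-KO 1, beside 49.7% of all tested genes, with a median log2 difference of 0.36 between these replicates. 7 of the 8 genes had their lowest value in Zbp1-KO 1, beside 27.5% of all tested genes, the exception being Ppargc1a. The contrast was widest for G6pc (log2 difference 0.87), Pcx (0.84), Fbp1 (0.61) and Slc37a4 (0.48), and narrow for Khk and Glud1 (0.03 each). In the mean over the 8 genes of log2 CPM centred on each gene, WT 1 stood at 0.15, WT 2 at −0.04, Zbp1-KO 1 at −0.25 and Zbp1-KO 2 at 0.14. The 3 genes of at least 10 CPM whose centred values came closest to that mean over the 4 libraries were Zfp1, Atp5o and Ehmt1, with a root mean square distance of 0.0128 to 0.0172 on the log2 scale, and 372 of 8199 genes lay within 0.1 of it.

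Most proximal tubule markers were also lowest in Zbp1-KO 1. Their summed level was 4113 and 3963 CPM in WT, against 3312 and 4235 CPM in Zbp1-KO, and 8 of the 11 tested markers were lowest in Zbp1-KO 1. Slc34a1, the main phosphate transporter of the proximal tubule, had 923, 1032, 529 and 995 CPM in WT 1, WT 2, Zbp1-KO 1 and Zbp1-KO 2. The other 3 markers were not lowest there. The organic anion transporter Slc22a7 had 212, 139, 250 and 177 CPM in the same order, highest in Zbp1-KO 1. The water channel Aqp1 had 395, 261, 390 and 268 CPM, and Lrp2, the endocytic receptor megalin, 262, 332, 332 and 337 CPM. In RNA from kidney tissue, fewer cells of a type and less RNA per cell cannot be told apart. The summed CPM of the 8 genes came to 24.5% and 22.5% of that of the markers in WT, and to 24.6% and 23.1% in Zbp1-KO. That sum is weighted to Khk and Pck1 (means of 271 and 246 CPM), and single genes differed. The log2 difference between the Zbp1-KO libraries was 0.03 for Khk and Glud1, against 0.87 for G6pc and 0.84 for Pcx. The last 3 markers and this ratio were picked after their values had been seen, and the part of the proximal tubule share in the results was not tested.

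**Figure D3:**
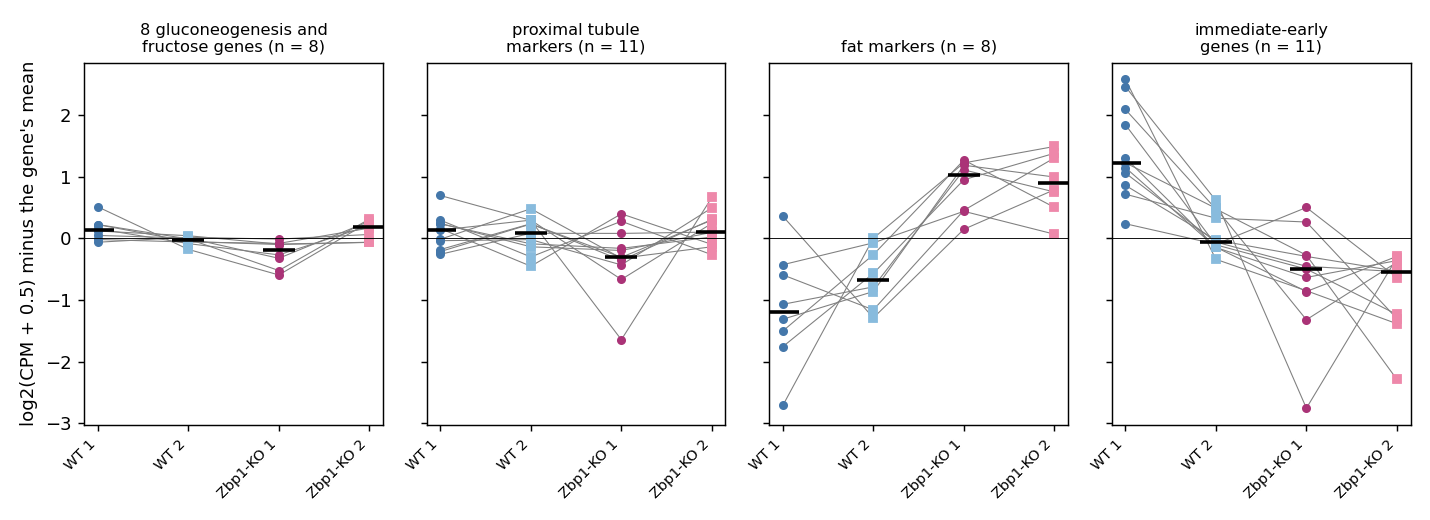
Log2(CPM + 0.5) minus the gene's own mean in each library, 1 line per tested gene and black bars for the median, for the 8 genes, 11 proximal tubule markers, 8 fat markers and 11 immediate-early genes (libraries have no order). The medians of the 8 genes and of the proximal tubule markers are lowest in Zbp1-KO 1. Fat markers are high in both Zbp1-KO libraries, and immediate-early genes are high in WT 1 and low in both Zbp1-KO libraries.

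Markers of other cells were read beside these genes, since adipocytes also use Pck1 and Pcx. Of 10 fat markers, 8 were tested, and each had a positive log2 fold change, with a median of 2.17, of which 7 had an unadjusted p under 0.05 and 1 was called (Cfd, adipsin, edgeR adjusted p = 0.00889). Their summed level was 92.2 and 125 CPM in WT, against 279 and 254 CPM in Zbp1-KO. The fatty acid carrier Fabp4 had 62.8 and 80.5 CPM in WT, against 115 and 88.8 CPM in Zbp1-KO, and Lep was at 0 in all libraries. Pck1 alone reached 231 CPM or more in each library, and its log2 fold change of 0.09 stood beside 1.91 for Adipoq, the adiponectin gene. Whether fat RNA contributed to the values of Pck1 or Pcx was not tested. Of 6 tubular injury markers, 3 were tested, 2 above 0 and 1 below, with a median log2 fold change of 0.26. The one below 0 was Spp1, which encodes osteopontin, at −0.11. It stood at 539 ± 40.4 CPM in WT, against 499 ± 80.1 CPM in Zbp1-KO (SD of 2 libraries). Havcr1 was under 1 CPM throughout. Immediate-early genes summed to 576 and 213 CPM in WT, against 120 and 124 CPM in Zbp1-KO, and 9 of 11 were lower at an unadjusted p under 0.05, with 0 called. For 10 of 11 both Zbp1-KO values were below both WT values, beside 16.3% of all tested genes. The transcription factor gene Egr1 had 122 and 15.7 CPM in WT, against 10.8 and 7.33 CPM in Zbp1-KO. Nr4a1 of the same list had a log2 fold change of −2.48 ± 0.58 (SE, edgeR adjusted p = 0.999). All 11 genes of the list were below 0, with a median of −1.34. Any part of cAMP in these values or in those of the 8 genes was not tested. G6pc, Khk, Glud1 and the immediate-early sum were highest in WT 1, whereas Pck1, Fbp1, Pcx, Slc37a4 and Ppargc1a were highest in Zbp1-KO 2. The other marker lists had medians of 0.12 (thick ascending limb and distal tubule, 7 tested), −0.15 (collecting duct, 7), 0.56 (podocyte, 5), 0.54 (leukocyte, 7) and −0.17 (liver, 6).

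The rest of the pathway was then counted from 7 lists of 98 further genes, of which 95 were tested. None was called over all genes by the edgeR quasi-likelihood test, and at an unadjusted p under 0.05 there was 1 higher gene (Gpt2) and 2 lower ones (Ppara and Cebpb), beside 3.88% of all tested genes. Altogether 39 were above 0 and 56 below, with a median log2 fold change of −0.07. List medians ran from −0.10 to 0.12.

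The enzymes that glycolysis and gluconeogenesis share had 10 of 10 genes tested, 3 above 0 and 7 below, with a median log2 fold change of −0.06. Aldoa, a glycolytic aldolase, had 854 and 765 CPM in WT, against 816 and 763 CPM in Zbp1-KO. The genotypes overlapped, and its log2 fold change was −0.04 ± 0.18 (SE).

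Other gluconeogenic enzymes comprised 4 genes, of which 3 were tested and 3 were below 0, with a median of −0.03. G6pc3, a broadly expressed glucose-6-phosphatase, had 36.9 and 42.2 CPM in WT, against 37.3 and 40.0 CPM in Zbp1-KO. Fbp2, the muscle-type bisphosphatase, had 19.9 and 10.3 CPM in WT, against 13.4 and 14.1 CPM in Zbp1-KO. The genotypes overlapped for each of them, and G6pc2 was at 0 in all libraries.

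For entry of lactate, pyruvate, glycerol and amino acids, 20 of 21 genes were tested, 8 above 0 and 12 below, with a median of −0.05. The lactate dehydrogenase genes Ldhb and Ldha had log2 fold changes of −0.12 ± 0.18 and −0.02 ± 0.20 (SE). Gpt2, a mitochondrial alanine aminotransferase, measured 9.73 and 11.2 CPM in WT, against 17.0 and 15.7 CPM in Zbp1-KO. The Zbp1-KO libraries lay above both WT libraries. Its log2 fold change was 0.65 ± 0.29 (SE). In edgeR the unadjusted p was 0.0489 and the adjusted p 0.999, and the change lay between 0.54 and 0.75 over all alternatives. With all 4 libraries, 0 genes of this list passed an unadjusted p under 0.05 in the edgeR exact test or DESeq2. The same held with the replicate number as a block, with either alternative filter and without mitochondrially encoded genes. With either alternative scaling or limma-voom 1 gene passed.

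On the fructose and polyol side 10 of 10 genes were tested, 4 above 0 and 6 below, with a median of −0.05. Sord, which oxidizes sorbitol to fructose, had 167 and 160 CPM in WT, against 132 and 195 CPM in Zbp1-KO. Tkfc, the triose kinase of fructose breakdown, had 125 and 146 CPM in WT, against 111 and 142 CPM in Zbp1-KO. For both of them Zbp1-KO 1 was again the lowest library and the genotypes overlapped.

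Of 24 regulators, all were tested, 11 above 0 and 13 below, with a median of −0.07. Pth1r, the parathyroid hormone receptor, and Hnf4a, a nuclear receptor that maintains proximal tubule identity, were highest by RPKM, with log2 fold changes of 0.16 ± 0.18 and −0.26 ± 0.18 (SE). Hnf4a measured 147 and 146 CPM in WT, against 126 and 120 CPM in Zbp1-KO, without overlap. Ppara, the fatty acid-sensing nuclear receptor of fasting, had 37 and 63 counts in WT and 10 in each Zbp1-KO library, a log2 fold change of −2.20 ± 0.82 (SE, unadjusted p = 0.0199, edgeR adjusted p = 0.999). Cebpb, a transcription factor of the acute-phase and fasting responses, had 28.1 and 22.1 CPM in WT, against 19.4 and 9.05 CPM in Zbp1-KO, a log2 fold change of −0.80 ± 0.34 (SE, unadjusted p = 0.0349, edgeR adjusted p = 0.999). Across the alternatives Ppara ran from −2.57 to −1.71 and Cebpb from −1.48 to −0.38, and neither was called in any of them.

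Glycolytic steps that oppose gluconeogenesis, together with pyruvate oxidation, had 17 of 18 genes tested, 6 above 0 and 11 below, with a median of −0.10. Pkm, a pyruvate kinase gene, and Pdk2, a pyruvate dehydrogenase kinase gene, had log2 fold changes of −0.24 ± 0.22 and −0.10 ± 0.19 (SE). The glycogen and glucose 6-phosphate branch had 11 of 11 tested, 7 above 0 and 4 below, with a median of 0.12. H6pd, which uses glucose 6-phosphate within the endoplasmic reticulum, was at −0.23 ± 0.19 (SE), and Ugp2, which makes UDP-glucose, at 0.20 ± 0.24 (SE).

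**Figure D4:**
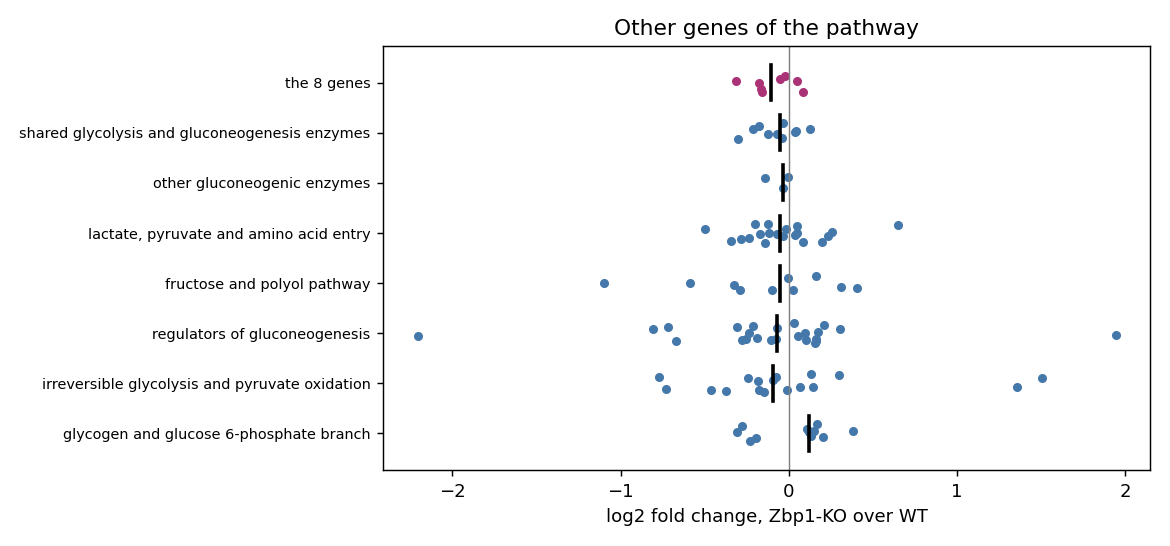
Log2 fold change (Zbp1-KO over WT) of every tested gene of the 8 genes and the 7 pathway lists, with a black bar at each median. Medians lie between −0.11 and 0.12, and the points far from 0, such as Ppara at −2.20, were not called.

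Position gave a further reason to look at Pck1. In GENCODE M21 (GRCm38) it occupies chr2:173153048-173159273 on the plus strand, and Zbp1 chr2:173206612-173218923 on the minus strand, so that their 3′ ends face each other across 47.3 kb with 0 annotated genes in between. Besides Zbp1 itself, 7 genes within 500 kb were tested, Pck1 among them, and 0 passed an unadjusted p under 0.05 in edgeR. Pmepa1, an inhibitor of TGF-β signalling, lies on the minus strand with its 3′ end 5.53 kb from Zbp1, on the side away from Pck1. Its log2 fold change was 0.02 ± 0.22 (SE), close to the 0.09 of Pck1. The others ran from −0.68 (Rae1) to 0.04 (Bmp7). Rae1 and Ppp4r1l-ps lay just above the threshold (edgeR unadjusted p = 0.0520 and 0.0533). Both Zbp1-KO values were below both WT values for Rae1, Rbm38, Ppp4r1l-ps and Rab22a, beside 16.3% of all tested genes. Rbm38 was low, at 2.41 and 2.31 CPM in WT, against 1.70 and 2.26 CPM in Zbp1-KO. Its log2 fold change was −0.26 ± 0.83 (SE). The genotypes overlapped for Pck1, Pmepa1 and Bmp7. Neighbours were chosen by distance alone.

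**Figure D5:**
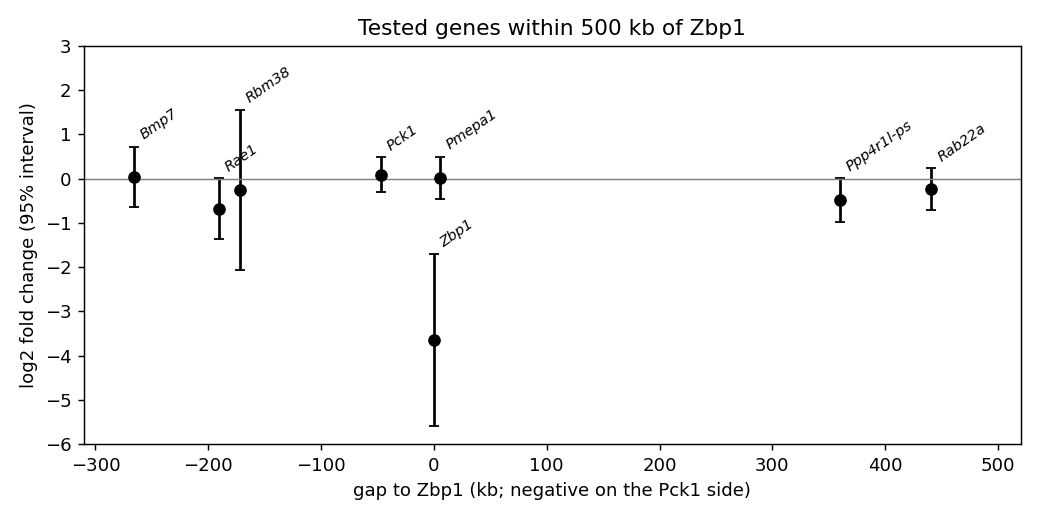
Log2 fold change with 95% interval (edgeR) of the tested genes within 500 kb of Zbp1, by gap to the gene in kb. Zbp1 is at −3.64 in the fit, whereas the intervals of Pck1 at 47.3 kb and Pmepa1 at 5.53 kb both include 0.

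The remaining 7 genes lie on other chromosomes: G6pc at chr11:101367561-101377903 (plus strand), Fbp1 at chr13:62864753-62888282 (minus), Pcx at chr19:4510472-4621752 (plus), Glud1 at chr14:34310727-34345265 (plus), Slc37a4 at chr9:44396852-44402968 (plus), and Khk at chr5:30921431-30931248 (plus) with Ppargc1a at chr5:51454250-51567726 (minus). None of the 8 genes shares exon bases with another annotated gene. Their counts ranged from 319 to 3912 per library. For 1 gene alone, 2 libraries against 2 allow no exact permutation p (two-sided) under 0.333, so the tests rest on variance shared across genes.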

How the data were processed

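Polyadenylated kidney RNA (Trizol, TruSeq RNA v2) was sequenced by the authors as read pairs on a HiSeq4000. Trimming used Trimmomatic, alignment hisat2, and featureCounts assigned uniquely mapped pairs to genes. The submitters' notes name mm10 (GRCm38), and program versions, annotation release and strand setting are not given in the sources used here. The deposited values are raw counts, 1 file per library, for 54532 Ensembl genes, of which 54495 matched GENCODE M21 for symbols, positions and exon lengths. Groups and replicate numbers came from sample titles.

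The two-sided quasi-likelihood F test of edgeR 4.0.16 (R 4.3.3) was run on the counts after filterByExpr (minimum count 10, total 15) and TMM scaling, with genotype as the sole term and Benjamini-Hochberg adjustment over all 14908 tested genes. Fold changes use a prior count of 0.125, and SE is the absolute log2 fold change over the square root of F. CPM are TMM-scaled, and RPKM divide them by union exon length. Where the symbol Aldoa had more than 1 ID, the ID with most counts was kept. Intervals cover the spread between these libraries, which may be partly technical. A count of 0 allows up to 3 counts, or 0.221 to 0.323 CPM, for counting error only.

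The 8 genes, the lists and the naming rule were chosen with earlier results of these data known. Named were the 8 genes and Zbp1, in each pathway list the 2 genes of highest RPKM and up to 4 with the smallest unadjusted p under 0.05, in marker lists those of highest CPM, and the 3 nearest profiles. Adipoq, Nr4a1 and other genes outside that rule were picked with their values in view. Other marker lists are given by their medians, and 1 gene that the rule named is not reported here. The alternatives comprised DESeq2-type and upper quartile scaling, a filter of 1 count in any library, a filter of 1 CPM on the mean, the replicate number as a block, the edgeR exact test (nearest to the study's own), DESeq2 1.42.0, limma-voom (limma 3.58.1), leaving out mitochondrially encoded genes, and leaving out each library.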

Additional observations from a re-analysis of the deposited data

How the results depend on the processing

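None of the 8 genes was called under any of the 13 alternatives, and none of the 95 tested pathway genes under the main filter was called in any of them. With all 4 libraries, none of the 72 member values changed sign. Leaving out 1 library (where the lone library is assumed to vary like the other group) gave log2 fold changes from −0.051 to 0.20 for Pck1, from −0.82 to 0.068 for G6pc, from −0.36 to 0.25 for Fbp1, from −0.65 to 0.19 for Pcx and from −0.32 to 0.16 for Slc37a4. Khk, Glud1 and Ppargc1a kept their sign. The median of the 8 genes ran from −0.26 without Zbp1-KO 2 to 0.12 without Zbp1-KO 1. Upper quartile scaling left 1 of the 8 genes without overlap in place of 2, and the order of levels was the same under every scaling. Non-overlap was not recomputed with a library left out.

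Over all genes, 2 were called. The number was 41 with at least 1 count in any library, 14 with the edgeR exact test, 9 with DESeq2, 7 with limma-voom and 4 without mitochondrially encoded genes, and from 0 (without WT 1) to 37 (without Zbp1-KO 2) with 1 library left out. With the replicate number as a block it was 11, and the block changed no call on the 8 genes. Over genes, deviations from the group mean correlated at 0.00399 between libraries that share a number, and the number was therefore not read as a pairing. The cause was not tested.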
